A study of Homo sapiens with 4 samples.

Results

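The BCL7 proteins and a core set of BAF complex subunits were examined at the RNA level in Hs578T, an established cell line of human breast carcinoma origin. The 10 genes were taken by name: the family BCL7A, BCL7B and BCL7C, and the subunits SS18, SMARCA2, SMARCA4, SMARCB1, ARID1A, ARID1B and ACTL6A. All 10 were found in the deposited table of 60721 genes, and all 10 were among the 16137 genes that passed the filter on low counts. BCL7B was selected on its own values in this comparison, its low counts in the siTLN1 libraries, so its difference is described here without a test. The other 9 genes were taken as its paralogs or as partners in the complex. The cells of both groups were co-transfected with GFP and 1.6 µM of an RNA, which was a non-targeting control in SCR and an siRNA against TLN1, the gene of the adhesion adaptor talin-1, in siTLN1. RNA was taken 48 h later, and each group held 2 libraries described as biological replicates of 1 cell line. Which siRNA sequence was used, and whether it was a single molecule or a pool, is not given in the sources used here.

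BAF complexes, the mammalian SWI/SNF family, use the energy of ATP to slide or eject nucleosomes and so open chromatin at enhancers and promoters. One of a pair of ATPases, SMARCA4 (BRG1) or SMARCA2 (BRM), forms the motor, and further subunits direct it and hold it on the nucleosome. The small BCL7 proteins are accessory subunits that join the ATPase module together with SS18, ACTL6A and actin, and they are found in canonical BAF, in PBAF and in the smaller non-canonical form, ncBAF. Genes of this complex are among those most often mutated in human cancer, ARID1A above all.

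Total counts ran from 31854322 to 46353297 per library, so each member but BCL7A rested on at least 715 read pairs in every library and BCL7A on at least 273. Levels are given as CPM, counts scaled to library size with TMM correction for library composition. TLN1 checked the labels: it stood at 868 and 874 CPM in SCR and at 51.9 and 44.8 CPM in siTLN1. The libraries are named a and b after a number in the count table's headers that recurs once in each group and matches no label. The label calls the cells epithelial, but EPCAM was at 0 to 0.144 CPM and CDH1 at 0.409 to 0.851 CPM, whereas KRT18 was at 104 to 131 CPM and VIM, a mesenchymal marker, at 3811 to 3968 CPM. The summed level of 8 epithelial markers was 327 and 380 CPM in SCR and 252 and 261 CPM in siTLN1. Within that sum KRT14 and KRT17 fell (log2 fold changes −0.81 and −0.91) while KRT18 did not pass (0.024). KRT8 (−0.24) and CDH1 (0.83) did not pass either. CDH1 pointed up, at 0.409 and 0.517 CPM in SCR and at 0.797 and 0.851 CPM in siTLN1. EPCAM, KRT19 and KRT5 had too few counts to be tested. Of 7 mesenchymal markers CDH2 (−0.89) and SPARC (−0.48) fell as well, with edgeR adjusted p of 2.45e-05 and 0.0161. The others did not pass, with log2 fold changes from −0.30 (THY1) to 0.25 (FN1). The summed level of the 7 was 56720 and 54860 CPM in SCR and 60790 and 52930 CPM in siTLN1. The part of these markers in the results below was not tested. In bulk RNA, fewer cells with a transcript and less of it per cell cannot be told apart, and p-values measure only the spread between these samples. With 2 libraries against 2, exact permutation of 1 gene's values cannot give a p below 0.333, so p-values come from the quasi-likelihood test of edgeR, which was fitted across all genes.

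One sequence feature of the BCL7 genes is shown first, because BCL7B, BCL7C and the BAF subunit gene SMARCD1 carry it. An earlier analysis of these data had found that genes with the 7-base word GACAACA in the 3′ UTR tended to be lower in siTLN1. The word was searched on the transcript strand alone, in all GENCODE 29 transcripts of the tested genes (GRCh38). The copies in 3′ UTRs of these genes are printed with 11 bases on each side and the word in capitals.
BCL7B: tttgaggttctGACAACAgtacccatccc
BCL7C: ttattctccatGACAACAaccacacatcg
SMARCD1: gttggttcaagGACAACAccagaatgaag
The word lies at chr7:73536554-73536560 (minus strand) in BCL7B, at chr16:30851575-30851581 (minus strand) in BCL7C and at chr12:50099121-50099127 (plus strand) in SMARCD1. Outside the word the flanks were not compared.

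BCL7B carried most of the family's RNA in control cells and lost most of it in siTLN1. BCL7B (ENSG00000106635.8; GRCh38 chromosome 7, 73536356 to 73557690, minus strand) was at 88.5 and 86.0 CPM in SCR and at 19.6 CPM in each siTLN1 library. These values came from 2812 and 2995 read pairs against 715 and 923. The groups lay far apart, and the siTLN1 mean was 22.5% of the SCR mean (log2 fold change −2.15, standard error 0.099). Among the 10486 genes that averaged at least 5 CPM, this was the third largest fall. No exon base of BCL7B is shared with another gene, so its reads could not be mistaken for those of an overlapping transcript.

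BCL7A, the paralog with the lowest level, was higher in siTLN1, and of the 9 members tested it alone passed. BCL7A (ENSG00000110987.8; chromosome 12, 122019422 to 122062044, plus strand) was at 8.59 and 9.19 CPM in SCR and at 12.5 and 12.1 CPM in siTLN1. Both siTLN1 libraries lay above both SCR libraries. On the log2 scale the rise was 0.47 (standard error 0.12, 95% interval 0.21 to 0.73), and edgeR gave an adjusted p of 0.0321 over all genes tested (Benjamini-Hochberg). This call was a narrow one: the adjusted p was 0.05002 without a filter on low counts, 0.0628 with DESeq2, 0.110 without SCR library a, 0.226 without siTLN1 library a and 0.0940 without siTLN1 library b, and it ranged from 0.000237 (replicate block) to 0.226 over all alternatives. Of its exon bases, 9.78% also lie in exons of ENSG00000255856 on the opposite strand, and counting without strand could not separate the genes.

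BCL7C did not pass the test, and its values pointed down rather than up. BCL7C (ENSG00000099385.11; chromosome 16, 30833626 to 30894960, minus strand) was at 40.1 and 45.4 CPM in SCR and at 32.6 and 35.5 CPM in siTLN1. Both siTLN1 libraries lay below both SCR libraries. Its log2 fold change was −0.33 (95% interval −0.55 to −0.11) and its adjusted p 0.0717 (edgeR). The adjusted p was 0.169 without a filter on low counts (edgeR), 0.102 with DESeq2 and 0.000168 with limma-trend and a replicate block. That block fit called 22.6% of all genes. With 1 library left out the log2 fold change of BCL7C ran from −0.42 to −0.23. Opposite-strand exons of MIR762 and MIR762HG cover 19.0% of the exon bases of BCL7C, and counting without strand could not separate them.

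**Figure D1:**
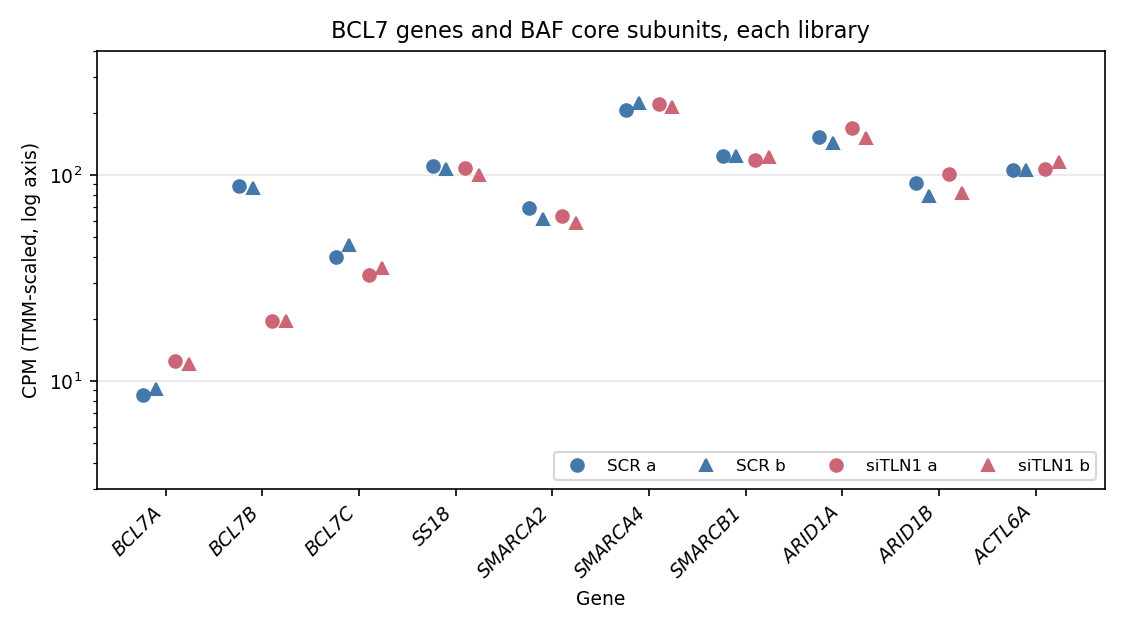
Level of each of the 10 genes in CPM (y axis, log scale) in the 4 libraries, with SCR in blue, siTLN1 in red, circles for library a and triangles for library b. BCL7B drops from 88.5 and 86.0 to 19.6 CPM, and BCL7A sits at 12.1 to 12.5 CPM in siTLN1 against 8.59 to 9.19 in SCR. None of the 7 genes from SS18 to ACTL6A passed the test, and ARID1B ran from 78.7 to 100 CPM over the libraries.

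The family total answered whether BCL7A or BCL7C offset the loss of BCL7B. Levels of different genes were compared per length, as CPM per kilobase of annotated exon. In control cells BCL7B stood at 27.4 and 26.6, BCL7C at 9.11 and 10.3, and BCL7A at 1.31 and 1.40 CPM per kilobase. In siTLN1 the level of BCL7B was 6.08 in each library, that of BCL7C 7.41 and 8.07, and that of BCL7A 1.90 and 1.85 CPM per kilobase. BCL7C was thus above BCL7B in both siTLN1 libraries and below it in both SCR libraries.

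The summed level of the 3 genes was 37.8 and 38.4 CPM per kilobase in SCR and 15.4 and 16.0 in siTLN1. The siTLN1 total was 41.2% of the SCR total, and it lay between 40.2% and 42.3% for any pairing of 1 siTLN1 with 1 SCR library. On the same scale the mean of BCL7B fell by 20.9 and that of BCL7C was 1.98 lower, while that of BCL7A was 0.522 higher. The difference in BCL7A equalled 2.49% of the fall of BCL7B, against 5.07% in CPM and 0.799% per kilobase of the transcript with the longest coding sequence. BCL7A and BCL7C together were at 11.1 ± 0.924 CPM per kilobase (SD, n = 2) in SCR and at 9.62 ± 0.421 (SD, n = 2) in siTLN1, whereas a 2.89-fold rise of their sum would have been needed to restore the family total. Neither paralog offset the fall at the RNA level in these libraries. Protein was not measured.

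The makeup of the family's RNA shifted with the fall. BCL7B made up 72.4% and 69.4% of the summed level in SCR and 39.5% and 38.0% in siTLN1. The share of BCL7C was 24.1% and 26.9% in SCR against 48.2% and 50.4% in siTLN1, although its own level was not higher. On this scale BCL7A went from 3.46% and 3.65% to 12.4% and 11.6%. The annotated exon length counts every isoform, so the total was also computed with the length of the transcript with the longest coding sequence (985 bases for BCL7B, 1603 for BCL7C and 6247 for BCL7A), a choice made after seeing the data. The siTLN1 total was then 37.0% of SCR, and the share of BCL7B was 77.3% and 74.6% in SCR and 47.2% and 45.3% in siTLN1. BCL7A then made up 1.18% and 1.26% in SCR and 4.73% and 4.41% in siTLN1. These values rest on the 985 bases of the chosen BCL7B transcript. Another coding BCL7B transcript has 1975 bases, and its length was not used. In summed CPM without any division by length the siTLN1 total was 47.5% of SCR.

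**Figure D2:**
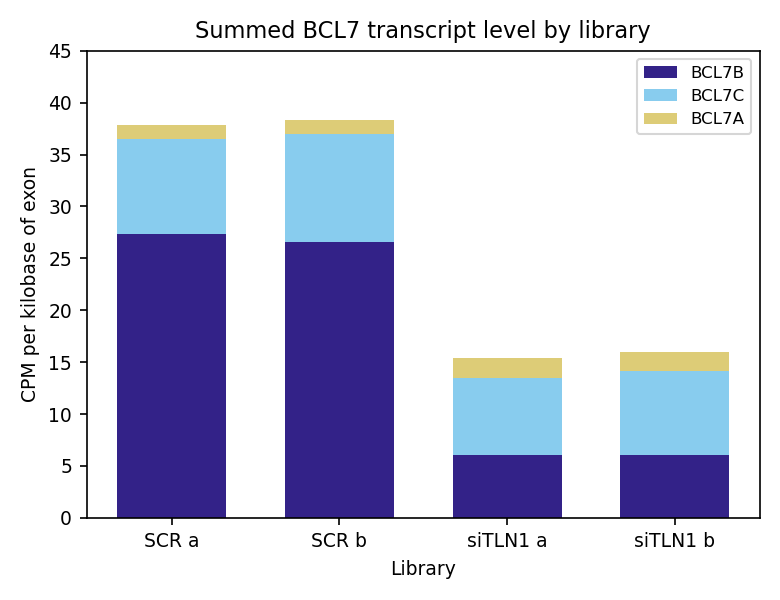
Summed level of BCL7B, BCL7C and BCL7A in CPM per kilobase of exon (y axis) in each of the 4 libraries (x axis), as stacked bars. The bars reach 37.8 and 38.4 in SCR and 15.4 and 16.0 in siTLN1, and nearly all of the difference is in the BCL7B segment.

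The 7 members outside the BCL7 family gave no call. Of the 9 members besides BCL7B, 1 passed the threshold and was higher. Of all genes tested 6.07% passed, 2.3% higher and 3.77% lower. The libraries of the groups did not overlap for 4 of the 9, beside 48.4% of all genes. Members other than BCL7B had a median log2 fold change of 0.020, and the median over all genes tested was 0.0033. The count of 1 in 9 is too small to set apart from these shares.

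Neither ATPase passed the test. SMARCA4 (ENSG00000127616.18; chromosome 19, 10960825 to 11079426) was at 206 and 223 CPM in SCR and at 221 and 214 CPM in siTLN1, with overlapping groups and a log2 fold change of 0.020 (95% interval −0.18 to 0.22). SMARCA2 (ENSG00000080503.24; chromosome 9, 1980290 to 2193624) was at 69.3 and 61.3 CPM in SCR and at 63.0 and 58.5 CPM in siTLN1, a log2 fold change of −0.10 (95% interval −0.31 to 0.11). SMARCA4 was the more abundant ATPase in every library: per kilobase of exon SMARCA2 made up 22.2% and 18.9% of the pair's RNA in SCR and 19.5% and 18.8% in siTLN1. As fold changes the intervals ran from 0.886 to 1.16 for SMARCA4 and from 0.805 to 1.08 for SMARCA2, so changes of that size remain possible.

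SS18 and ACTL6A share the ATPase module with the BCL7 proteins. SS18 (ENSG00000141380.14; chromosome 18, 26016253 to 26091217), the subunit fused to SSX in synovial sarcoma, was at 110 and 106 CPM in SCR and at 108 and 99.6 CPM in siTLN1. Its log2 fold change was −0.061 (95% interval −0.26 to 0.14). Its paralog SS18L1 made up 13.4% and 14.5% of the pair per kilobase in SCR and 13.0% and 15.02% in siTLN1. ACTL6A (BAF53A; ENSG00000136518.17; chromosome 3, 179562886 to 179588407), an actin-related subunit also used by the INO80 and TIP60 complexes, was at 106 CPM in each SCR library and at 107 and 116 CPM in siTLN1. Its libraries did not overlap, but the log2 fold change of 0.074 (95% interval −0.12 to 0.27) had an adjusted p of 0.731 (edgeR). Its neuronal counterpart ACTL6B had no counts in any library.

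The core and targeting subunits gave no call, although both siTLN1 libraries of SMARCB1 lay below both SCR libraries (adjusted p 0.861, edgeR). SMARCB1 (SNF5; ENSG00000099956.19; chromosome 22, 23786931 to 23838008), the core subunit lost in rhabdoid tumours, was at 124 and 123 CPM in SCR and at 118 and 122 CPM in siTLN1, a log2 fold change of −0.042 (95% interval −0.23 to 0.15). ARID1A (ENSG00000117713.20; chromosome 1, 26693236 to 26782104), the large DNA-binding subunit that marks canonical BAF, was at 152 and 143 CPM in SCR and at 169 and 151 CPM in siTLN1. Its log2 fold change was 0.12 (95% interval −0.081 to 0.32). ARID1B (ENSG00000049618.23; chromosome 6, 156776020 to 157210779), which takes the same position as ARID1A, was at 91.0 and 78.7 CPM in SCR and at 100 and 81.2 CPM in siTLN1, a log2 fold change of 0.098 (95% interval −0.15 to 0.34). The ARID1B values followed the library letter more than the group, with both a libraries above both b libraries. Per kilobase of exon, ARID1B made up 17.6% and 16.4% of the ARID1 RNA in SCR and 17.5% and 16.1% in siTLN1. On the scale of the transcript with the longest coding sequence its share was 31.4% in SCR and 31.1% in siTLN1. Opposite-strand exons of DERL3 cover 17.7% of the exon bases of SMARCB1, whereas at most 5.97% of those of SS18, the ATPases, the ARID1 genes and ACTL6A lie in opposite-strand exons.

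The place of BCL7B among the subunits changed with its level. Per kilobase of exon the SCR order was ACTL6A (28.9 ± 0.0911, SD, n = 2), BCL7B (27.0 ± 0.540), SS18 (17.7 ± 0.479), SMARCA4 (13.6 ± 0.791), BCL7C (9.72 ± 0.859), ARID1A (9.24 ± 0.404), SMARCB1 (7.47 ± 0.0257), SMARCA2 (3.51 ± 0.304), ARID1B (1.90 ± 0.195) and BCL7A (1.35 ± 0.0646). The neighbours BCL7C and ARID1A did not differ beyond their spread. In siTLN1 BCL7B held position 7, at 6.08 CPM per kilobase, between SMARCB1 (7.25 ± 0.172) and SMARCA2 (3.27 ± 0.170). By the length of the transcript with the longest coding sequence BCL7B held position 1 in SCR and 6 in siTLN1. Those positions rest on a BCL7B transcript of 985 bases, and another coding one has 1975, which would give a lower level. BCL7A was in position 10 in each group on each scale. The order of genes with many annotated exon bases depends on the length used: SMARCB1, with 16525 exon bases and a chosen transcript of 1717, moved from position 7 to 2 in SCR.

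Subunits outside the 10 members were read from a list of 21 genes of BAF, PBAF and ncBAF, of which 18 were tested. Of these, 1 rose, 1 fell and 16 did not pass, with a median log2 fold change of 0.069. Over all genes tested 6.07% passed. The subunit that fell was SMARCD1 (BAF60A), a core subunit that links the complex to transcription factors. It was at 60.9 and 55.4 CPM in SCR and at 28.3 and 29.9 CPM in siTLN1, so 50.1% of its SCR mean remained and the groups did not overlap. Its log2 fold change was −0.996 (standard error 0.10, adjusted p 1.34e-05, edgeR), and the call held under all alternatives. Its paralogs were SMARCD2, at 56.0 and 58.2 CPM in SCR and 55.1 and 57.9 CPM in siTLN1, and SMARCD3, at 24.5 and 25.9 against 26.9 and 27.6 CPM. Neither passed the test (log2 fold changes −0.015 and 0.11), with upper 95% limits of 0.18 and 0.33.

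The subunit that rose was PHF10, which belongs to PBAF alone. PHF10 was at 66.4 and 68.9 CPM in SCR and at 85.4 and 84.5 CPM in siTLN1, with log2 fold change 0.33 and adjusted p 0.0434 (edgeR). The call was lost without a filter on low counts (adjusted p 0.0716) and when any 1 library was left out (0.0837 to 0.277), over a range from 2.93e-05 to 0.277. Of the subunits that did not pass, the smallest p was that of SMARCC1, a scaffold subunit, at 252 and 237 CPM in SCR and 298 and 286 CPM in siTLN1 (log2 fold change 0.26, adjusted p 0.122). The ncBAF subunits BRD9, BICRA and BICRAL had log2 fold changes of 0.078, 0.19 and 0.12 and did not pass. ACTL6B and BCL11B had no counts, and BCL11A was at 0.0213 to 0.220 CPM.

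**Figure D3:**
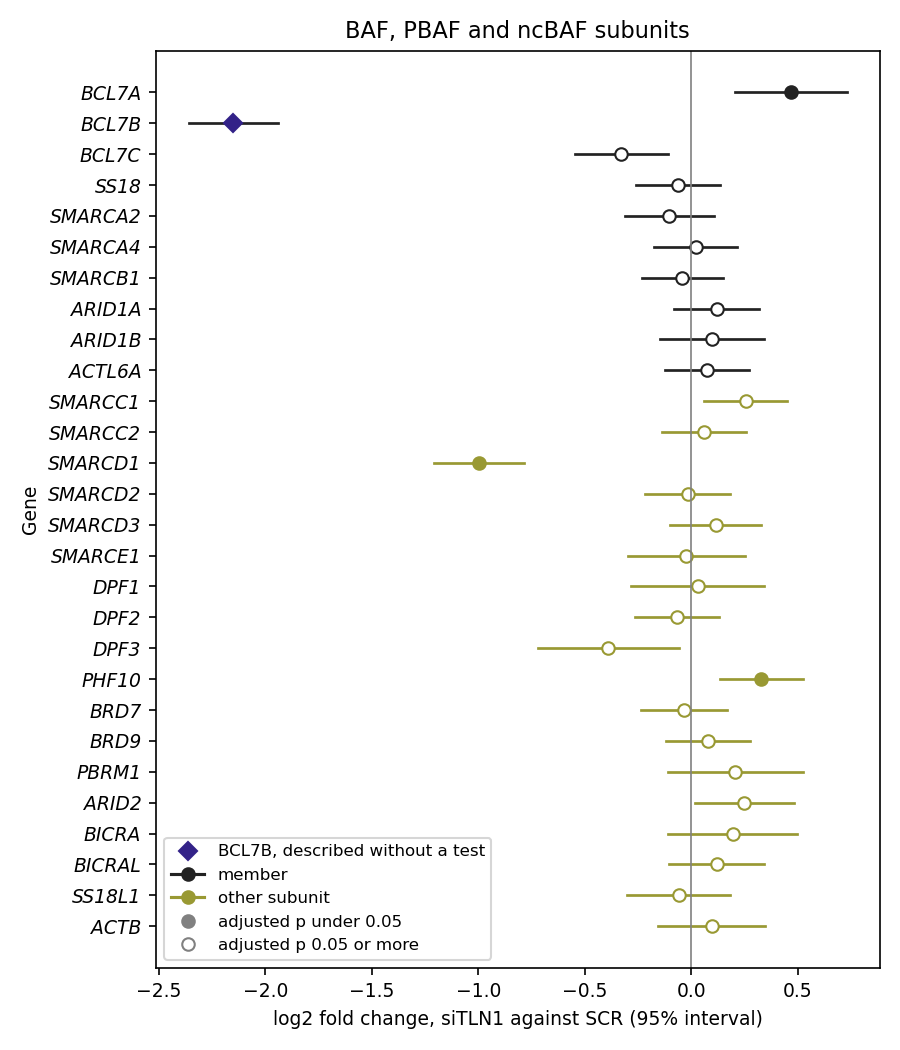
Log2 fold change of siTLN1 against SCR (x axis) with its 95% interval for the 10 members (black) and the 18 other subunits tested (olive), where filled circles mark an adjusted p under 0.05 and the diamond marks BCL7B, described without a test. BCL7B at −2.15 and SMARCD1 at −0.996 stand far to the left, BCL7A at 0.47 and PHF10 at 0.33 lie to the right, and most other intervals cross 0.

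Other chromatin complexes were listed for comparison, to be read beside the 6.07% of all genes tested that passed. Of 32 tested subunits of INO80, SRCAP and TIP60, the complexes that share ACTL6A, 0 rose and 1 fell, with a median log2 fold change of 0.014. That gene was MORF4L1 (MRG15), a chromodomain protein of TIP60, at 243 and 239 CPM in SCR and at 152 and 168 CPM in siTLN1 (log2 fold change −0.60, adjusted p 0.0010, edgeR). Its paralog MORF4L2 was at 275 and 283 CPM against 211 and 242 CPM (log2 fold change −0.30, adjusted p 0.0777). Of 18 CHD and NuRD genes, 0 rose and 1 fell: CDK2AP1, a small NuRD-associated protein, had 110 and 112 CPM in SCR and 79.2 and 87.1 CPM in siTLN1 (log2 fold change −0.42, adjusted p 0.0131). That call was lost without siTLN1 library a (adjusted p 0.227). CHD8 came next in that list (log2 fold change 0.32, adjusted p 0.0680).

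The lists of ISWI and Polycomb genes held no call by edgeR, where 6.07% of all genes tested were called. Of 13 ISWI genes, 1 had an unadjusted p under 0.05, which was BAZ1B (log2 fold change −0.26, adjusted p 0.108). Of 28 Polycomb genes, which oppose BAF at many promoters, 3 had an unadjusted p under 0.05, led by MTF2 (log2 fold change 0.29, adjusted p 0.104). Over all 16137 genes tested, 3196 had an unadjusted p under 0.05 (edgeR). DESeq2, limma-voom and limma-trend without a block also made 0 calls in both lists. The medians were 0.061 and 0.092. Of the ISWI values 76.9% lay above 0 and of the Polycomb values 78.6%, beside 50.6% of all genes tested. That share was 66.7% for CHD and NuRD, 61.1% for the other BAF subunits and 56.25% for INO80, SRCAP and TIP60. With a replicate block the calls were 2 of 13 and 3 of 28, where 22.6% of all genes were called.

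The genes around BCL7B on chromosome 7 were examined next. Within 1000000 bases on either side, a stretch that includes much of the Williams-Beuren region, lay 71 other annotated genes. Of these, 24 were tested and 0 passed by edgeR, beside 6.07% of all genes tested. A count of 0 in 24 is too small to set apart from that share. An unadjusted p under 0.05 was found for 4 of the 24, beside 3196 of all 16137 genes tested (edgeR). DESeq2, limma-voom and limma-trend without a block made 0 calls among the 24. The median log2 fold change was −0.041. The nearest tested neighbours were TBL2, 9.85 kb away, at 67.1 and 68.5 CPM in SCR and 63.2 and 68.9 CPM in siTLN1 (log2 fold change −0.037), and BAZ1B, 14.1 kb away, at 296 and 277 CPM against 238 and 240 CPM. The lowest value, −0.95, was that of BICDL3P, a gene at 0.234 to 0.629 CPM, with an adjusted p of 0.303. With limma-trend and a replicate block 5 of the 24 were called (BAZ1B, GTF2IRD1, LAT2, POM121 and SBDSP1), near the 22.6% of all genes that this fit called.

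**Figure D4:**
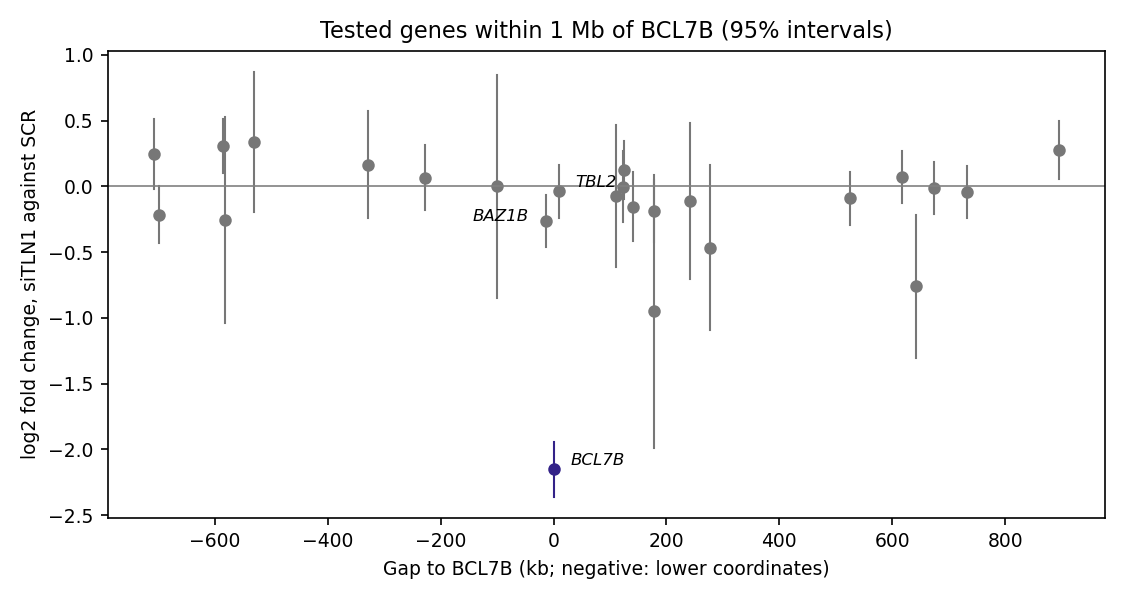
Log2 fold change with its 95% interval (y axis) of BCL7B and the 24 other tested genes within 1000000 bases, against the gap to BCL7B in kilobases (x axis). BCL7B lies at −2.15, and the neighbours have a median of −0.041.

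The genes whose levels over the 4 libraries were most like those of BCL7B were RCN2, KCNK2, CLSTN2, MYBL2 and MYPN. Likeness was the Euclidean distance between log2 CPM values centred on each gene's mean, over 4 libraries of 2 conditions, among genes at 5 CPM or more. The distances were 0.253 for RCN2, 0.515 for KCNK2, 0.526 for CLSTN2, 0.553 for MYBL2 and 0.555 for MYPN. RCN2, at 79.6 and 79.0 CPM in SCR and 21.3 CPM in each siTLN1 library, was the closest. Such a rank mainly picks genes with a similar fall.

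The word shown above was then counted across genes. Of 15968 tested genes with a transcript in GENCODE 29, 10.6% held it in the 3′ UTR of at least 1 transcript, 16.1% held it elsewhere only and 73.3% lacked it. Lower calls made up 12.1% of the 1698 genes with the word in a 3′ UTR, 4.17% of the 2565 with it elsewhere and 2.50% of the 11705 without it. Higher calls made up 1.77%, 2.22% and 2.41%, and the median log2 fold changes were −0.061, −0.0086 and 0.015. These shares describe the same data in which the word was found and are no independent support. The length of the 3′ UTR and the number of annotated transcripts per gene were not taken into account.

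Among the BCL7 genes, BCL7B and BCL7C held the word in some of their annotated transcripts and BCL7A in none. BCL7B held it in 5 of 14 annotated transcripts, of which 2 are coding with the copy in the 3′ UTR and 3 are non-coding. Which BCL7B transcripts these cells make cannot be read from counts per gene, and the transcript with the longest coding sequence, with a 3′ UTR of 156 bases, lacks the word. BCL7C held it in the 3′ UTR of 1 of 5 transcripts, and BCL7A in none of 3. SS18, SMARCB1 and ACTL6A held it in none of 26, 21 and 14 transcripts.

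The other members with the word showed no call. SMARCA4 held it in the coding sequence of 20 of 54 transcripts and ARID1B in that of 4 of 36. ARID1A held up to 6 copies in the coding sequence. In 2 of its 17 transcripts up to 4 copies lay in the annotated 3′ UTR. These 2 are annotated as subject to nonsense-mediated decay, and the same positions are coding in other ARID1A transcripts. SMARCA2 held 1 copy in a non-coding transcript. Of the genes called outside the members, SMARCD1 and MORF4L1 each held the word in the 3′ UTR of 4 transcripts, CDK2AP1 held it in no 3′ UTR, and PHF10 lacked it. Of the 5 genes most like BCL7B, RCN2, KCNK2 and CLSTN2 held it in a 3′ UTR, and MYBL2 and MYPN in coding sequence only. Its part in the fall of BCL7B was not tested.

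**Figure D5:**
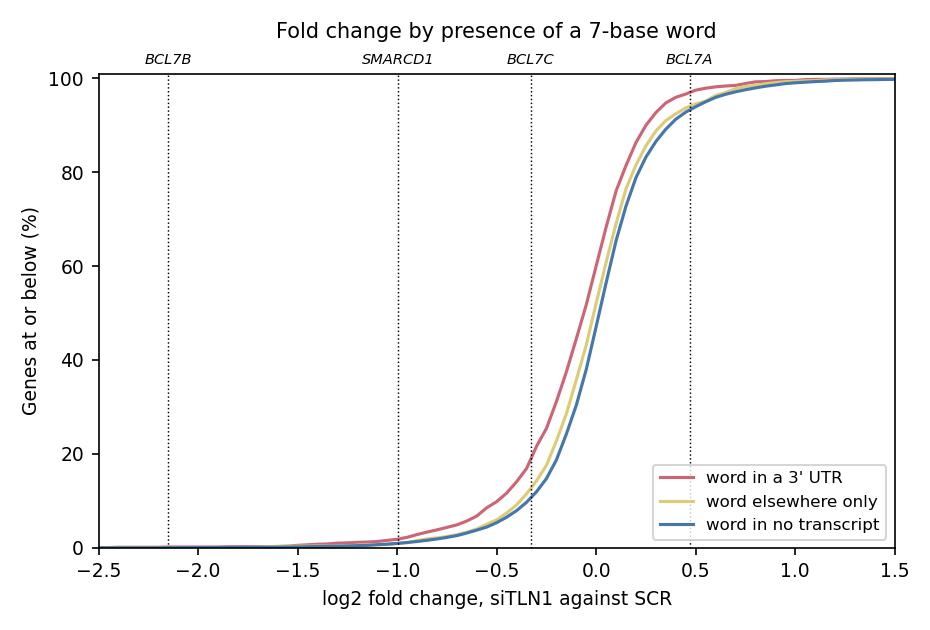
Share of genes at or below each log2 fold change (y axis, percent) for genes with the word GACAACA in a 3′ UTR (red), elsewhere only (yellow) or in no transcript (blue), with dotted lines at BCL7B, SMARCD1, BCL7C and BCL7A. At a log2 fold change of −0.35 the curves stand at 16.9%, 11.5% and 9.71% of genes, and BCL7B lies far out in the left tail at −2.15.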

How the data were processed

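Polyadenylated RNA was sequenced from stranded libraries of 2 SCR and 2 siTLN1 samples, grouped by their titles. The authors deposited raw read-pair counts per gene from featureCounts 2.0.0 on GENCODE 33, with no strand option per the file headers. STAR 2.7.9a and GRCh38 are named in the submitters' processing notes. Their deposited log2 CPM table (16137 genes, edgeR 3.34.1 named in the notes) equalled TMM-scaled values recomputed here for 100% of entries to within 1e-06, sorted within groups. The count columns were mapped to groups only, with 0 columns left unmapped and 0 rows naming no gene.

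Genes passing filterByExpr (minimum count 10, minimum total 15) were tested with edgeR 4.0.16 in R 4.3.3 (TMM, robust quasi-likelihood fit, Benjamini-Hochberg adjustment over all 16137 genes, threshold 0.05). The fit was tested on simulated counts. Exon length came from the count table, symbols from a table of gene names and transcript sequences from GENCODE 29. Members and lists were chosen with earlier results of these data known. Named genes were TLN1, the members, every list gene or neighbour past the threshold, the next gene by p in each list, and the 5 genes most like BCL7B. SMARCD2, SMARCD3, the ncBAF subunits and further neighbours were named after their values were seen. Alternative fits used RLE scaling, library totals without TMM, no filter, a mean of 10 counts, DESeq2 1.42.0, limma 3.58.1 (voom, and trend on the deposited log2 CPM with and without a replicate block) and each library left out.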

Additional observations from a re-analysis of the deposited data

How the results depend on the processing

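The 980 genes changed became 3645 with the replicate block (limma-trend on the deposited log2 CPM) and 324 to 1100 with 1 library left out, the lowest without siTLN1 library a; a lone sample is then assumed to vary like the other group. Of the 9 members besides BCL7B, 1 passed (BCL7A), but 0 with no filter and 0 with DESeq2 (2 at an unadjusted p under 0.05 in each). Those fits called 2.03% and 5.2% of all genes. At an unadjusted p under 0.05 they held 3836 of 32708 genes and 2290 of 16137. With the replicate block 2 members passed (BCL7A and BCL7C). With 1 library left out the log2 fold change ran from 0.42 to 0.52 for BCL7A and from −0.42 to −0.23 for BCL7C. The replicate numbers of the labels share only a number: replicate differences of the groups correlated at 0.19 across genes (0.54 at 5 CPM or more), and no label states a shared preparation. With the replicate block, where 22.6% of all genes were called, the calls were 6 other BAF subunits, 7 INO80, SRCAP and TIP60 genes, 2 ISWI, 6 CHD and NuRD and 3 Polycomb genes, and 5 genes beside BCL7B. Other BAF subunits gave 1 call with no filter, and CHD and NuRD genes 2 with total counts only. With 1 library left out these lists gave 1 to 2 calls (other BAF subunits), 1 to 2 (INO80, SRCAP and TIP60) and 0 to 1 (CHD and NuRD). Direction turned for SS18 without siTLN1 library b (0.0034), for SMARCA4 without SCR library a (−0.037) or siTLN1 library a (−0.0012), and for ARID1B without SCR library b (−0.0028) or siTLN1 library a (−0.060); with 1 library left out their values ran from −0.12 to 0.0034, from −0.037 to 0.082 and from −0.060 to 0.25, and none passed the threshold. The BCL7 family total was 47.5% of SCR as summed CPM and 37.0% by the length of 1 transcript, and 40.4% to 42.0% with 1 library left out. The log2 fold change of BCL7B stayed between −2.17 and −2.13 under every alternative. Among the members depth limits BCL7A most, and 2 libraries per group limit every interval.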
